A study of Mus musculus with 6 samples.

Results

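The genes described here carry sugars into duodenal villus cells, break down fructose and make glucose. They are the transporters *Slc5a1*, *Slc2a1*, *Slc2a2* and *Slc2a5*, the fructose kinase *Khk*, and the gluconeogenic enzymes *G6pc*, *Fbp1* and *Pck1*. These 8 genes were chosen by symbol from the 20409 rows of the count table, each through its Ensembl identifier, and all 8 were among the 13346 genes kept by the filter on low counts. RNA of the epithelium of the duodenal villi was sequenced in bulk, after poly(A) enrichment, from 3 wild-type and 3 double mutant mice on a C57BL6-enriched background, with 1 library per mouse. The double mutants (*Smad4* fl/fl; *Ctnnb* exon3 fl/wt; Villin-CreERT2) had received tamoxifen, which removes *Smad4* and exon 3 of one β-catenin allele, the latter giving a stabilised β-catenin. Villin-CreERT2 acts throughout the intestinal epithelium, in crypts as well as villi, and the villi were collected about a week after induction. By the series' design the mice are biological replicates. The wild-type mice were uninjected littermates, so the mutations and the tamoxifen cannot be told apart. Each group held 1 male and 2 females, the male being mouse 1 of each group by the labels, and the mice were of matched age by the study's methods.

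In the villus, absorptive enterocytes take glucose and galactose from the gut lumen with sodium through SGLT1 (*Slc5a1*) and fructose through GLUT5 (*Slc2a5*), and both leave the cell on the basolateral side largely through GLUT2 (*Slc2a2*). GLUT1 (*Slc2a1*) is the widely expressed glucose carrier of many dividing cells. Fructose is trapped by ketohexokinase (*Khk*) and then split, and the small intestine, like liver and kidney, also expresses the gluconeogenic steps run by PEPCK (*Pck1*), fructose-1,6-bisphosphatase (*Fbp1*) and glucose-6-phosphatase (*G6pc*).

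The DNA just before the transcription start is shown for 4 of the genes, 1 for each behaviour described below: *Slc5a1* as a transporter that fell, *Slc2a1* as the transporter that rose, *G6pc* as the gene that did not pass the test, and *Pck1* as the gene with the largest fall and the widest spread. The sequences are RefSeq promoters of the build GRCm38.p6, 250 bases long and ending at the base before the start, on the strand of the gene. They come from chr5:33103969-33104218, chr4:119108495-119108744, chr11:101367466-101367715 and chr2:173152823-173153072, all on the plus strand. Capitals mark matches to the short motifs that were searched.
*Slc5a1*: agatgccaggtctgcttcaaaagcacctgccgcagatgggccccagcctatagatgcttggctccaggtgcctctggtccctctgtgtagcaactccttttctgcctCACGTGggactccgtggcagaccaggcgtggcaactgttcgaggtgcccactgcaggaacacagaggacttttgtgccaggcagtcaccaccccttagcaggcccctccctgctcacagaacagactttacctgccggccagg
*Slc2a1*: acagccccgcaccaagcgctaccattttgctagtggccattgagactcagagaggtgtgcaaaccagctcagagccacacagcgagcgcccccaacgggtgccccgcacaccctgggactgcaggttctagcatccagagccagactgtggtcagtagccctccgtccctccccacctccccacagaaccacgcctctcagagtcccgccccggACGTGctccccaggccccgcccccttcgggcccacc
*G6pc*: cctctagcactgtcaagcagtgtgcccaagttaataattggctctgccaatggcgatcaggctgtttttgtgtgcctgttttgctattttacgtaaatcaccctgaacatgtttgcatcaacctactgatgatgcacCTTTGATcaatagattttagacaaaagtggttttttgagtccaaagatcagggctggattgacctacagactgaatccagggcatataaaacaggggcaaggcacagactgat
*Pck1*: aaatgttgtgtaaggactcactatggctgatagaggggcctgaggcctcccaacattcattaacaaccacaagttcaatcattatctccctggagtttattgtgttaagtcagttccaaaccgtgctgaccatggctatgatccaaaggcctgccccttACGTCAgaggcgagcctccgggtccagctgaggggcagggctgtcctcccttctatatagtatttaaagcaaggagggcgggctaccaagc
Each motif was searched on both strands in the 8 promoters and in all 32851 RefSeq windows of the same length. The capitals in *Slc5a1* are an E-box (CACGTG), which 6.02% of all windows hold and which *Khk* also holds. Those in *Slc2a1* are the core of a hypoxia response element (ACGTG), found in 16.6% of windows and overlapping the E-boxes of *Slc5a1* and *Khk*. The *G6pc* promoter holds a TCF/LEF site (CTTTGAT, 3.21% of windows) and that of *Pck1* a CRE half-site (ACGTCA, 6.47%). None of the 8 windows holds the SMAD palindrome GTCTAGAC (0.167% of windows). These matches are a description of letters and were not tied to any binding measurement.

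The libraries held 19678507 to 26337318 counts, so that a level of 3 counts corresponded to 0.114 to 0.152 CPM (counts scaled to the library total), a floor that covers counting error only. *Smad4* itself fell from 148 ± 30.4 to 31.7 ± 5.40 normalised CPM (SD, n = 3 mice each), 4.67-fold. The summed level of 10 enterocyte markers was 46340 to 54490 CPM in wild-type and 28760 to 32890 CPM in double mutant villi, with 6 of the 10 lower and 1 higher by edgeR. All 4 cycling-cell markers were higher, from a sum of 9.75 to 35.1 CPM in wild-type to 71.6 to 98.4 CPM in double mutant villi. Tuft markers were lower in 4 of 4 tested (sums of 82.6 to 111 against 11.9 to 13.4 CPM) and enteroendocrine markers in 5 of 7 (225 to 314 against 98.5 to 109 CPM), while 2 of 5 stem cell markers were higher (27.6 to 105 against 134.8 to 188.5 CPM). In bulk RNA, fewer cells of a type and less RNA per cell cannot be told apart, and the part of cell composition in the results below was not tested. Wild-type mouse 1 stood apart from the other wild-type mice, with 125 against 11030 and 11600 CPM summed over the goblet markers and 7.91 against 909 and 1500 CPM over the Paneth markers. It alone set the low ends of the wild-type sums of cycling markers (9.75 against 31.0 and 35.1 CPM) and stem cell markers (27.6 against 99.3 and 105 CPM). Of 7 immune markers, *Ptprc* and *Cd8a* were lower (−1.29 and −0.92, edgeR adjusted p = 0.00545 and 0.0191). Their list summed to 702 CPM in wild-type mouse 1 against 2179 and 2803 CPM in the others. It summed to 1113 CPM in double mutant mouse 1 against 2727 and 3152 CPM. Most of each sum was 1 gene, *Cd74*, at 625, 2032 and 2671 CPM in wild-type mice 1, 2 and 3. In double mutant mice 1, 2 and 3 *Cd74* was at 1051, 2654 and 3048 CPM. Mouse 1 is the only wild-type male, so this library and sex cannot be told apart within the group. Double mutant mouse 1, the other male, had 5057 CPM over the goblet markers against 4659 and 5051 CPM in double mutant mice 2 and 3. Its Paneth sum was 153.5 against 248 and 230 CPM. Cycling markers summed to 97.8 CPM in it against 98.4 and 71.6 CPM, and stem cell markers to 188.5 against 144 and 134.8 CPM. What set wild-type mouse 1 apart was not tested. Markers of hepatocytes summed to at most 1.21 CPM in 5 mice and to 13.4 CPM in double mutant mouse 2. Those of the proximal small intestine summed to 367 to 470 CPM in wild-type and 408.5 to 463 CPM in double mutant villi, and 0 of 3 were called.

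Between the groups, 6 of the 8 genes were lower in double mutant villi, 1 was higher and 1 did not pass the test (edgeR quasi-likelihood test, adjusted p under 0.05 over all tested genes). Of all tested genes, 36.8% were called, 17.0% lower and 19.7% higher (2273 and 2632 genes). Scaling by library size alone moved the median of all genes to 0.22 and the calls to 1425 lower and 3732 higher, and 3 of the 8 genes were then called lower and 1 higher. The values of double mutant and wild-type mice did not overlap for 7 of the 8 genes, 6 of them with the double mutants lower, against 52.4% and 24.2% of all tested genes. The median log2 fold change of the 8 genes was −1.25, and that of all tested genes was 0.02. The fall was largest in *Pck1* and *Slc5a1*, the latter being by far the most abundant of the genes. *Slc2a1*, at a low level in wild-type villi, moved the other way.

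**Figure D1:**
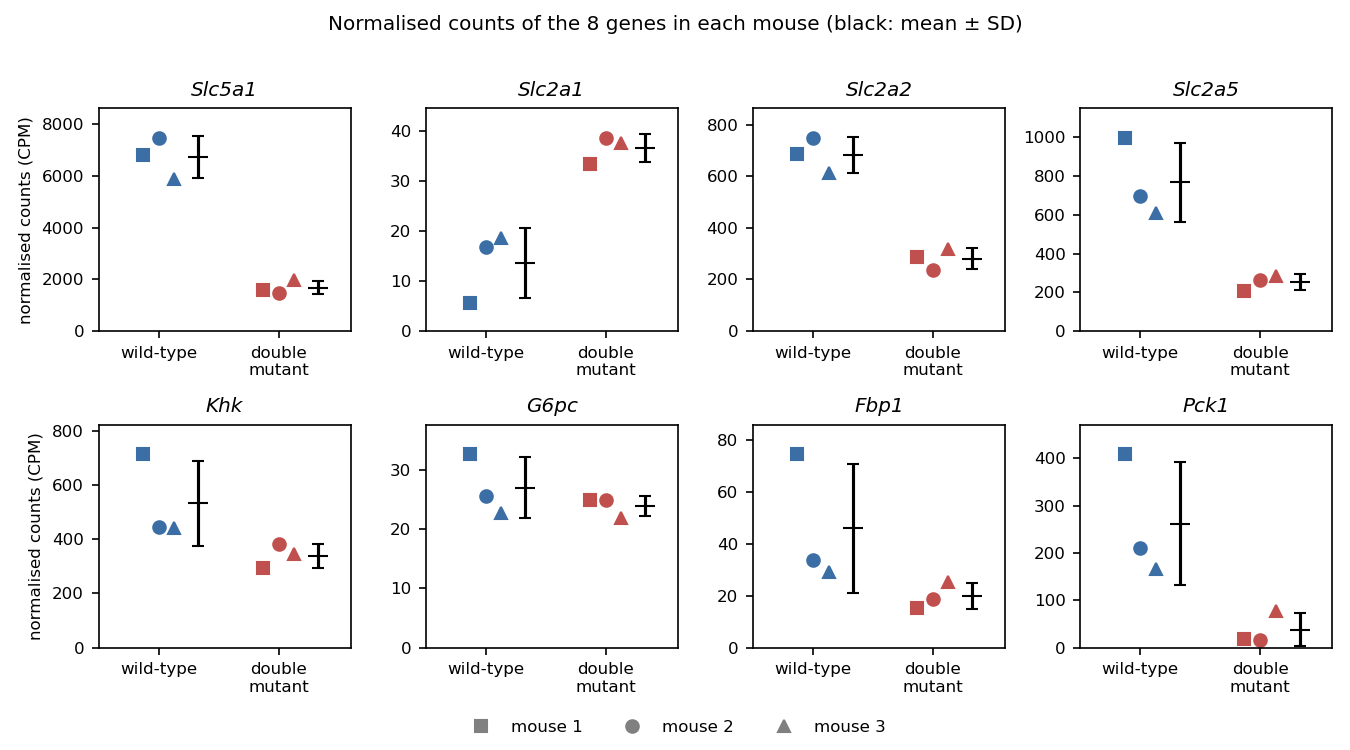
Normalised counts (CPM, linear axes from 0) of the 8 genes in each mouse, with squares, circles and triangles for mice 1, 2 and 3 of a group and black bars for the mean ± SD of 3 mice. The groups are apart in every panel but *G6pc*, and wild-type mouse 1 is the highest point for *Slc2a5*, *Khk*, *G6pc*, *Fbp1* and *Pck1* and the lowest for *Slc2a1*.

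*Slc5a1* (ENSMUSG00000011034, mm9 chr5:33446868-33505521, plus strand) encodes SGLT1, the sodium-glucose cotransporter of the brush border. Its normalised counts were 6800, 7480 and 5871 CPM in wild-type mice 1, 2 and 3 and 1585, 1467 and 1954 CPM in double mutant mice 1, 2 and 3. Every double mutant value lay well below the lowest wild-type value. The level fell 4.03-fold, a log2 fold change of −2.01 (SE 0.159, edgeR adjusted p = 0.000114). Among all tested genes 2.26% were called with a log2 fold change of −2 or lower. Neither leaving out a mouse nor any other setting moved it outside −2.13 to −1.81, and it passed the threshold in all 14 alternative fits. Genes annotated over *Slc5a1* had at most 96 counts in any mouse, and those over *Slc2a1*, *Slc2a2* and *Fbp1* at most 3, 45 and 2.

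*Slc2a5* (ENSMUSG00000028976, chr4:149493392-149518278, plus strand) encodes GLUT5, the fructose carrier of the brush border. It had 999, 699 and 609 CPM in the wild-type mice and 205, 263 and 286 CPM in the double mutants. The groups were apart, and wild-type mouse 1 was the highest of its group. The fall was 3.06-fold (log2 fold change −1.61, SE 0.207, edgeR adjusted p = 0.000841), and −1.38 without wild-type mouse 1 (edgeR adjusted p = 0.000163). It too passed the threshold in all 14 alternatives.

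*Slc2a2* (ENSMUSG00000027690, chr3:28596825-28627278, plus strand) encodes GLUT2, the exit route for glucose, galactose and fructose. Its values were 686, 750 and 611 CPM in wild-type and 288, 238 and 317 CPM in double mutant mice. The spread within either group was small beside the gap between them. It fell 2.43-fold (log2 fold change −1.28, SE 0.141, edgeR adjusted p = 0.000411) and kept its call in all 14 alternatives.

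*Slc2a1* (ENSMUSG00000028645, chr4:118781316-118809935, plus strand), encoding GLUT1, had 5.62, 16.8 and 18.6 CPM in wild-type mice and 33.5, 38.7 and 37.6 CPM in double mutants. All double mutants were above all wild-type mice, among which mouse 1 was the lowest. It rose 2.69-fold (log2 fold change 1.43, SE 0.405, edgeR adjusted p = 0.0319). Without wild-type mouse 1 the log2 fold change was 1.05 (edgeR adjusted p = 0.000526). The call was lost on leaving out wild-type mouse 2 (edgeR adjusted p = 0.0627) or double mutant mouse 1, 2 or 3 (0.0743, 0.104 and 0.0807) and with no filter on low counts (0.0966), while every leave-one-out value stayed at or above 1.05.

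The ratio of the counts of 2 genes within one mouse does not depend on any scaling between libraries, and was compared between groups for the transporters. Because the genes differ in length, the sign of such a ratio does not order their levels. The log2 ratio of *Slc2a2* to *Slc5a1* was −3.31, −3.32 and −3.27 in wild-type mice and −2.46, −2.62 and −2.63 in double mutants. It was higher in every double mutant than in any wild-type mouse, by 0.73 on average. The log2 ratio of *Slc2a1* to *Slc2a2* went from −6.93, −5.48 and −5.04 to −3.10, −2.62 and −3.07, again with no overlap. For *Slc2a5* to *Slc5a1* the ratios overlapped, at −2.77, −3.42 and −3.27 against −2.95, −2.48 and −2.77, with a mean difference of 0.42 (exact two-sided permutation test, p = 0.3). For the first 2 ratios p was 0.1, the smallest that 3 mice against 3 can give, and 0.12 after Benjamini-Hochberg adjustment over the 6 ratios tested, so none can pass 0.05 by this exact permutation test.

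**Figure D2:**
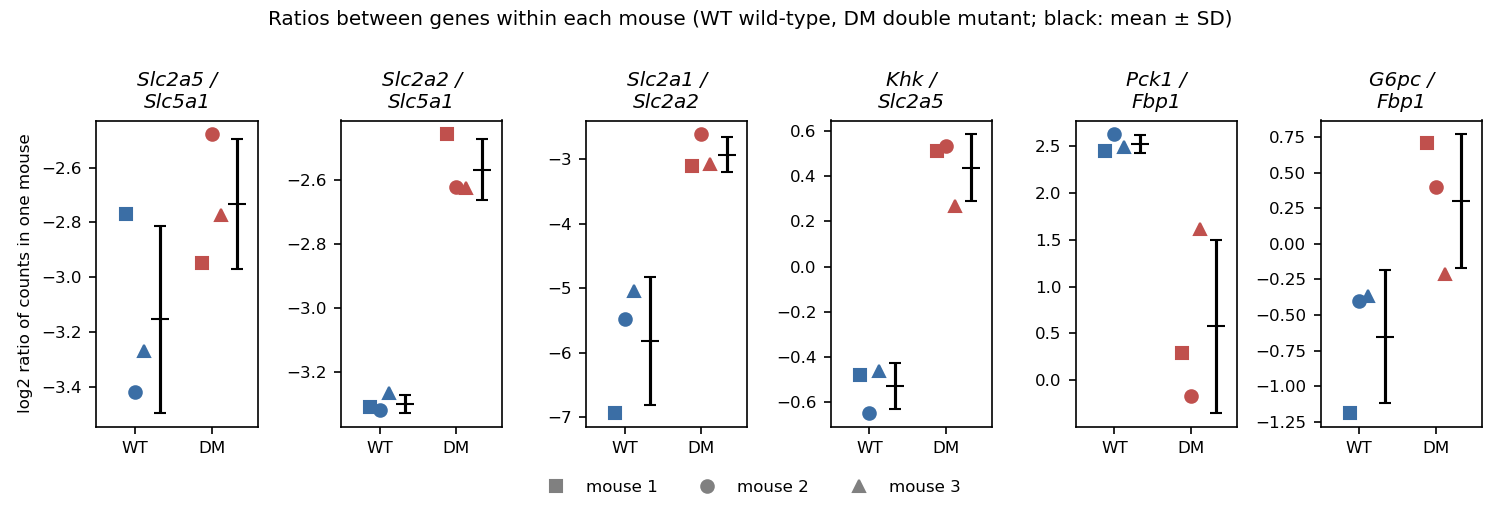
Log2 ratio of the counts of 2 genes within each mouse, for the 6 pairs tested, with symbols for mice 1, 2 and 3 and black bars for the mean ± SD of 3 mice. The groups are apart for all pairs but *Slc2a5* to *Slc5a1*, and each panel has its own axis, which does not start at 0.

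*Khk* (ENSMUSG00000029162, chr5:31223929-31233619, plus strand) encodes ketohexokinase, which phosphorylates fructose. Its counts sum over the isoforms of the gene, which were not separated. The values were 716, 446 and 442 CPM in wild-type mice and 293, 382 and 344 CPM in double mutants. The groups did not overlap, but wild-type mouse 1 lay far above the other wild-type mice, which were close to the highest double mutant. It fell 1.57-fold (log2 fold change −0.66, SE 0.204, edgeR adjusted p = 0.0355). Without wild-type mouse 1 the value was −0.39 (edgeR adjusted p = 0.0484), and with the female mice of both groups alone, a setting chosen after seeing the data, it was −0.29 and the call was lost (edgeR adjusted p = 0.0833). Leaving out double mutant mouse 1, 2 or 3 also ended the call (edgeR adjusted p = 0.12, 0.0599 and 0.0947), as did scaling by library size alone (−0.46, edgeR adjusted p = 0.0885).

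*Khk* was also set beside the fructose carrier. The log2 ratio of the counts of *Khk* to those of *Slc2a5* was −0.48, −0.65 and −0.46 in wild-type mice and 0.51, 0.54 and 0.27 in double mutants. It was higher in every double mutant than in any wild-type mouse, with a mean difference of 0.97 (exact two-sided permutation test, p = 0.1, adjusted p = 0.12). Leaving out each mouse in turn kept this difference between 0.91 and 1.05.

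Other enzymes of fructose and polyol metabolism moved in both directions. *Dak*, the triokinase that phosphorylates glyceraldehyde (*Tkfc* in newer annotations), fell from 793 ± 150 to 462 ± 50.7 CPM (−0.78, edgeR adjusted p = 0.00577). Of the 6 tested among 7 other genes of fructose and polyol metabolism, 3 were lower and 2 higher, with a median log2 fold change of −0.57. *Sord*, sorbitol dehydrogenase, which makes fructose from sorbitol, also fell (−0.74, edgeR adjusted p = 0.0134, and 0.0552 without double mutant mouse 2). The higher genes were *Akr1b3*, aldose reductase (1.45, edgeR adjusted p = 0.000842), and the related *Akr1b8* (4.05 ± 3.18 to 21.9 ± 8.50 CPM, edgeR adjusted p = 0.0203). The latter call was lost without double mutant mouse 1 or 2 or wild-type mouse 2 (edgeR adjusted p = 0.0534, 0.065 and 0.0731), the log2 fold change was 3.30 without wild-type mouse 3, and reads shared within this gene family make its count uncertain.

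*Pck1* (ENSMUSG00000027513, chr2:172978549-172984774, plus strand) encodes cytosolic PEPCK, which commits oxaloacetate to gluconeogenesis. It had 409, 209 and 165 CPM in wild-type mice and 18.6, 16.8 and 77.7 CPM in double mutants. The groups did not overlap, but double mutant mouse 3 was far above the other double mutants and wild-type mouse 1 was far above the rest of its group. The fall was 6.93-fold, the largest among the 8 genes, and also the least precise (log2 fold change −2.79, SE 0.804, edgeR adjusted p = 0.0494). Without double mutant mouse 3 it was −3.88 (edgeR adjusted p = 0.00376). Leaving out any other mouse ended the call, at log2 fold changes of −3.04 to −2.31 and edgeR adjusted p = 0.132 without wild-type mouse 1, 0.105 without wild-type mouse 2, 0.0784 without wild-type mouse 3, 0.113 without double mutant mouse 1 and 0.136 without double mutant mouse 2.

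*Fbp1* (ENSMUSG00000069805, chr13:62966113-62989642, minus strand) encodes fructose-1,6-bisphosphatase. It had 74.7, 33.9 and 29.3 CPM in wild-type and 15.3, 18.9 and 25.4 CPM in double mutant mice. Wild-type mouse 1 was again the highest, and double mutant mouse 3 came close to the lowest wild-type value. It fell 2.32-fold (log2 fold change −1.21, SE 0.390, edgeR adjusted p = 0.0497). The value without wild-type mouse 1 was −0.67 (edgeR adjusted p = 0.0275), and without either male it was −0.51. The call was lost without wild-type mouse 2 (edgeR adjusted p = 0.0595) or double mutant mouse 1, 2 or 3 (0.149, 0.163 and 0.0656). With sex as a covariate *Fbp1* and *Pck1* were not called (edgeR adjusted p = 0.0829 and 0.108), which left 4 of the 8 genes lower. Both also lost their calls with library size alone (edgeR adjusted p = 0.0713 and 0.0542) and with no filter on low counts (0.143 and 0.108).

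*G6pc* (ENSMUSG00000078650, chr11:101228875-101239217, plus strand) encodes the catalytic subunit of glucose-6-phosphatase, the last step before glucose can leave a cell. Its values were 32.8, 25.6 and 22.8 CPM in wild-type and 25.0, 25.0 and 21.9 CPM in double mutant mice. The groups overlapped. The log2 fold change was −0.18 (SE 0.158, edgeR adjusted p = 0.413), and it did not pass the threshold in any of the 14 alternatives, which ran from −0.29 to 0.02. The positive value came from scaling by library size alone.

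Ratios were also taken among the gluconeogenic genes, by count as above. The log2 ratio of *Pck1* to *Fbp1* was 2.45, 2.63 and 2.50 in the wild-type mice, within a narrow range although wild-type mouse 1 was far above the others in both genes. In double mutants it was 0.29, −0.17 and 1.61, lower in every mouse and by 1.95 on average (exact two-sided permutation test, p = 0.1, adjusted p = 0.12). The log2 ratio of *G6pc* to *Fbp1* went from −1.19, −0.40 and −0.36 to 0.71, 0.40 and −0.21, with no overlap and the same p by the exact permutation test.

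Other genes of gluconeogenesis and of its substrates were mixed. Of 17 listed genes 16 were tested, and 6 were lower, 2 higher and 8 not called, with a median log2 fold change of −0.40. *Slc37a4*, which carries glucose 6-phosphate to the phosphatase, fell from 144 ± 21.2 to 63.2 ± 8.20 CPM (−1.19, edgeR adjusted p = 0.000672), while *G6pc3*, the ubiquitous phosphatase, rose from 12.2 ± 0.509 to 26.8 ± 3.07 CPM (1.13, edgeR adjusted p = 0.000622). *Pcx*, pyruvate carboxylase, which makes oxaloacetate, fell from 249 ± 65.6 to 126 ± 19.6 CPM (−0.98, edgeR adjusted p = 0.00732). *Gyk*, glycerol kinase, fell from 592 ± 133 to 176 ± 7.66 CPM (−1.75, edgeR adjusted p = 0.000231), and *Glud1*, glutamate dehydrogenase, fell from 339 to 157 CPM (−1.11, edgeR adjusted p = 0.00457). *Pck2*, the mitochondrial PEPCK, was low in both groups, at 5.19 ± 1.29 and 6.69 ± 2.57 CPM (0.37, edgeR adjusted p = 0.405). *Fbp2*, the second fructose-1,6-bisphosphatase and the neighbour of *Fbp1* on chromosome 13, was chosen for mention after its values were seen. It had 335, 236 and 244 CPM in wild-type and 231, 253 and 248 CPM in double mutant mice (−0.15, edgeR adjusted p = 0.45), with overlapping groups.

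**Figure D3:**
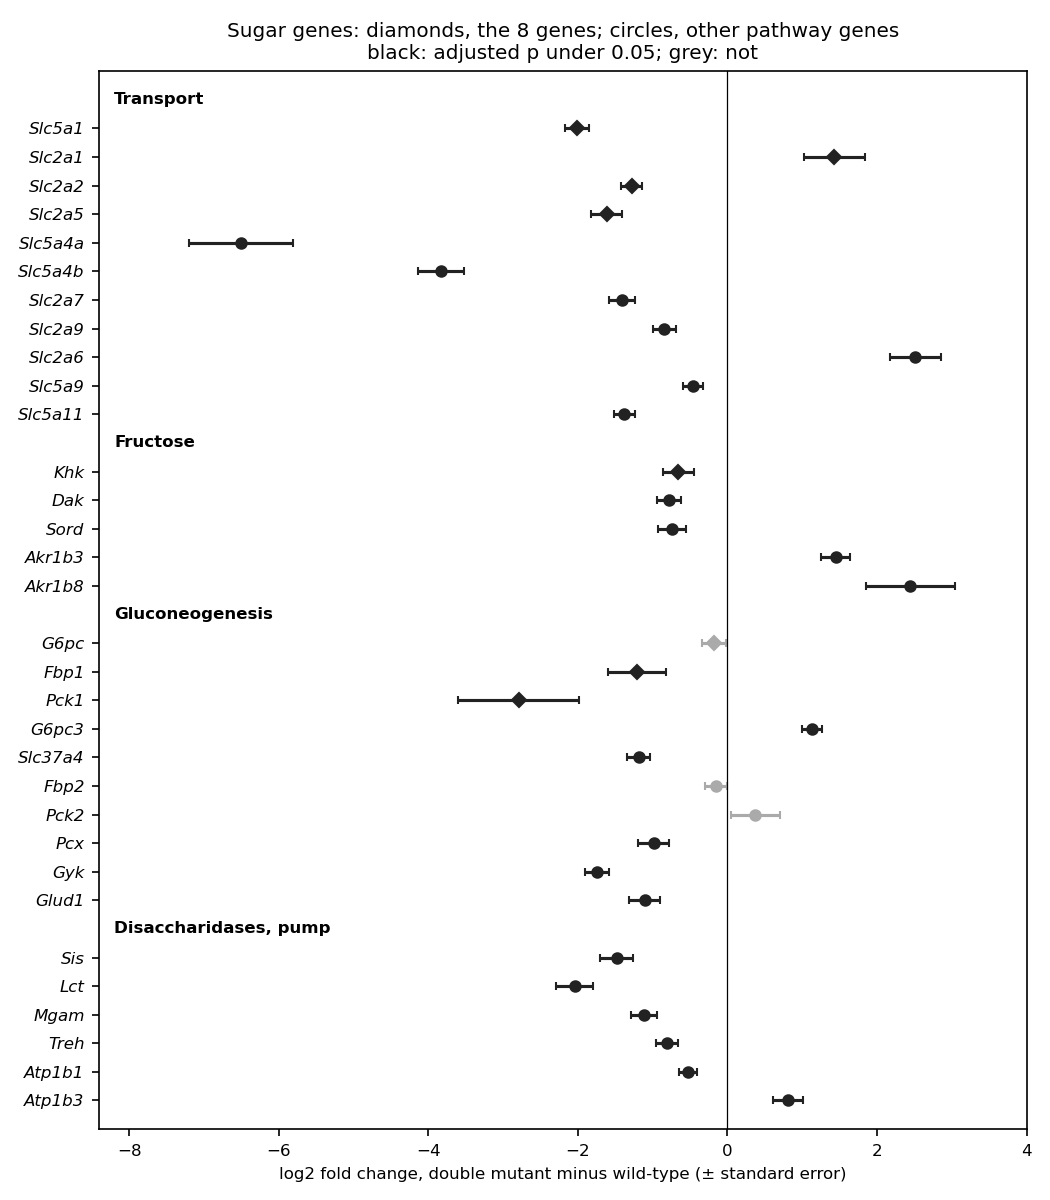
Log2 fold change, double mutant minus wild-type, ± standard error, for the 8 genes (diamonds) and 24 other genes of sugar transport and metabolism (circles), in black where the edgeR adjusted p was under 0.05 and in grey where not. *Slc5a4a* at −6.50 lies farthest to the left, the grey symbols are *G6pc*, *Fbp2* and *Pck2*, and most black symbols lie left of 0.

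Further sugar transporters fell with *Slc5a1*. Of the 12 tested among 18 listed, 6 were lower and 3 higher (median −0.65). *Slc5a4a* and *Slc5a4b*, relatives of SGLT1 that lie close together on chromosome 10, had the largest falls. *Slc5a4a* had 245, 163 and 93.5 CPM in wild-type and 1.46, 0.696 and 3.37 CPM in double mutant mice (−6.50, edgeR adjusted p = 0.00158), 90.8-fold lower, and −7.27 without double mutant mouse 3 (edgeR adjusted p = 0.00209). *Slc5a4b* fell 14.2-fold, from 118 ± 45.0 to 8.26 ± 1.61 CPM (−3.83, edgeR adjusted p = 0.000231). Reads shared between these close paralogs make the split between them uncertain. *Slc2a7* (GLUT7), which lies next to *Slc2a5* on chromosome 4, fell from 121 ± 21.4 to 45.3 ± 8.07 CPM (−1.42, edgeR adjusted p = 0.000645). The other lower genes, named here because the plot of pathway genes shows them, were *Slc5a11* (−1.38), *Slc2a9* (−0.85) and *Slc5a9* (−0.47). The higher ones were rare transcripts: *Slc2a6* (GLUT6) rose from 1.22 to 6.95 CPM (2.51, edgeR adjusted p = 0.000982), *Slc45a4* from 3.03 to 7.59 CPM (1.33, edgeR adjusted p = 0.00847) and *Slc50a1* from 7.05 to 12.9 CPM (0.88, edgeR adjusted p = 0.0203). The call of *Slc50a1* was lost without double mutant mouse 1 or 2 (edgeR adjusted p = 0.064 and 0.059).

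The enzymes that release sugars at the brush border were also lower, while subunits of the pump that maintains the sodium gradient for SGLT1 moved both ways. All 4 disaccharidase genes fell (median −1.30): *Lct* (lactase) from 2874 ± 242 to 697 ± 229 CPM (−2.04, edgeR adjusted p = 0.000704), *Sis* (sucrase-isomaltase) from 5607 ± 1153 to 2008 ± 523 CPM (−1.48, edgeR adjusted p = 0.0016), *Mgam* from 3525 to 1625 CPM (−1.12, edgeR adjusted p = 0.00202), and *Treh* (trehalase), shown in the same plot, by −0.81. *Sis* also counts among the enterocyte markers above. Among the sodium pump subunits, *Atp1b1* fell (3416 to 2373 CPM, −0.53, edgeR adjusted p = 0.0102) and the rarer *Atp1b3* rose (17.6 to 30.9 CPM, 0.81, edgeR adjusted p = 0.0135).

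The direction was less uniform in glycolysis, where 21 of 25 listed genes were tested, 7 were lower, 5 higher and 9 not called (median −0.19). *Hkdc1*, *Pklr* and *Pfkfb4* fell by 0.79, 0.71 and 0.67 on the log2 scale (edgeR adjusted p = 0.00159, 0.00438 and 0.00264). *Pfkl* (60.8 to 128 CPM, edgeR adjusted p = 0.00149) and *Aldoc* (0.78, edgeR adjusted p = 0.0115) rose. *Gapdh* went from 25.4 to 146 ± 68.4 CPM (2.53, edgeR adjusted p = 0.00193), a count made uncertain by the many processed copies of this gene in the genome. In galactose and glycogen metabolism 3 of 12 tested genes were lower and 1 higher, with 8 not called and a median of 0.09. *Pygl*, liver glycogen phosphorylase, fell from 9.44 ± 2.22 to 1.47 ± 0.0693 CPM (−2.68, edgeR adjusted p = 0.000248), *Pgm1* by 0.91 (edgeR adjusted p = 0.000537) and *Galm* by 0.65 (edgeR adjusted p = 0.00618), while *Galk1*, galactokinase, rose (0.80, edgeR adjusted p = 0.0035).

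Among 23 tested of 27 listed genes of sugar sensing and transcription factors known to act on these genes, 10 were lower and 2 higher (median −0.39). *Mlxipl*, which encodes the carbohydrate-responsive factor ChREBP, fell from 183 ± 29.5 to 138 ± 12.4 CPM (−0.41, edgeR adjusted p = 0.0472). That call was lost on leaving out any 1 of the 6 mice, with edgeR adjusted p from 0.0525 without wild-type mouse 3 to 0.13 without double mutant mouse 1, with sex as a covariate (0.0559) and with library size alone (0.227). *Txnip*, a well-known ChREBP target, did not pass the test (200 ± 60.6 and 203 ± 11.1 CPM, edgeR adjusted p = 0.957), whereas *Arrdc4*, of the same arrestin family, rose (0.68, edgeR adjusted p = 0.00398). *Hnf4a* fell by 0.39 (edgeR adjusted p = 0.0256), a call lost without wild-type mouse 2 or 3 (0.0868 and 0.0533) or double mutant mouse 1 or 3 (0.0701 and 0.0969) and with library size alone (−0.19, edgeR adjusted p = 0.193). The largest falls were in *Klf15*, a regulator of gluconeogenic genes in liver, from 2.94 to 0.423 CPM (−2.79, edgeR adjusted p = 0.00376, and −2.17 without wild-type mouse 1), *Sgk1*, a kinase that responds to glucocorticoids, from 79.3 ± 12.8 to 12.6 ± 7.89 CPM (6.30-fold, edgeR adjusted p = 0.00476, and a log2 fold change of −3.29 without double mutant mouse 3), and *Foxo3* (−0.89, edgeR adjusted p = 0.00383). *Cebpa* rose by 0.68 (edgeR adjusted p = 0.0106). Over all these lists, 97 of 114 genes other than the 8 were tested, and 41 were lower and 16 higher, with a median log2 fold change of −0.40. With library size alone 30 were lower and 21 higher.

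Levels can be compared between genes only per length. On the TPM scale, a share of all transcripts computed from the counts and the exon length of each gene, *Slc5a1* led in wild-type villi at 3454 ± 182, followed by *Khk* at 682 ± 209, *Slc2a2* at 525 ± 17.5, *Slc2a5* at 480 ± 129, *Pck1* at 162 ± 81.5, *Fbp1* at 57.5 ± 31.7, *G6pc* at 23.8 ± 4.59 and *Slc2a1* at 10.2 ± 5.42 TPM. Among neighbours in this order, the ranges over mice overlapped for *Khk* with *Slc2a2* and for *Slc2a2* with *Slc2a5*. In double mutant villi *Slc5a1* stayed first at 885 ± 162 TPM, then came *Khk* at 443 ± 56.5, *Slc2a2* at 223 ± 37.6 and *Slc2a5* at 161 ± 29.3 TPM, the ranges of the last pair overlapping. The remaining genes lay close together, *Slc2a1* at 28.0 ± 2.27, *Fbp1* at 25.5 ± 7.27, *Pck1* at 24.4 ± 23.0 and *G6pc* at 21.6 ± 1.04 TPM, with overlapping ranges between neighbours. By group means, *Slc2a1* went from the last of the 8 genes to the fifth. Set beside their relatives, *Fbp1* was below *Fbp2* (437 ± 97.3 TPM in wild-type villi), *Pck1* was above *Pck2* (3.24 ± 0.799 TPM), and *G6pc* and *G6pc3* traded order by group means, the latter going from 11.7 ± 1.32 to 26.1 ± 2.37 TPM.

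**Figure D4:**
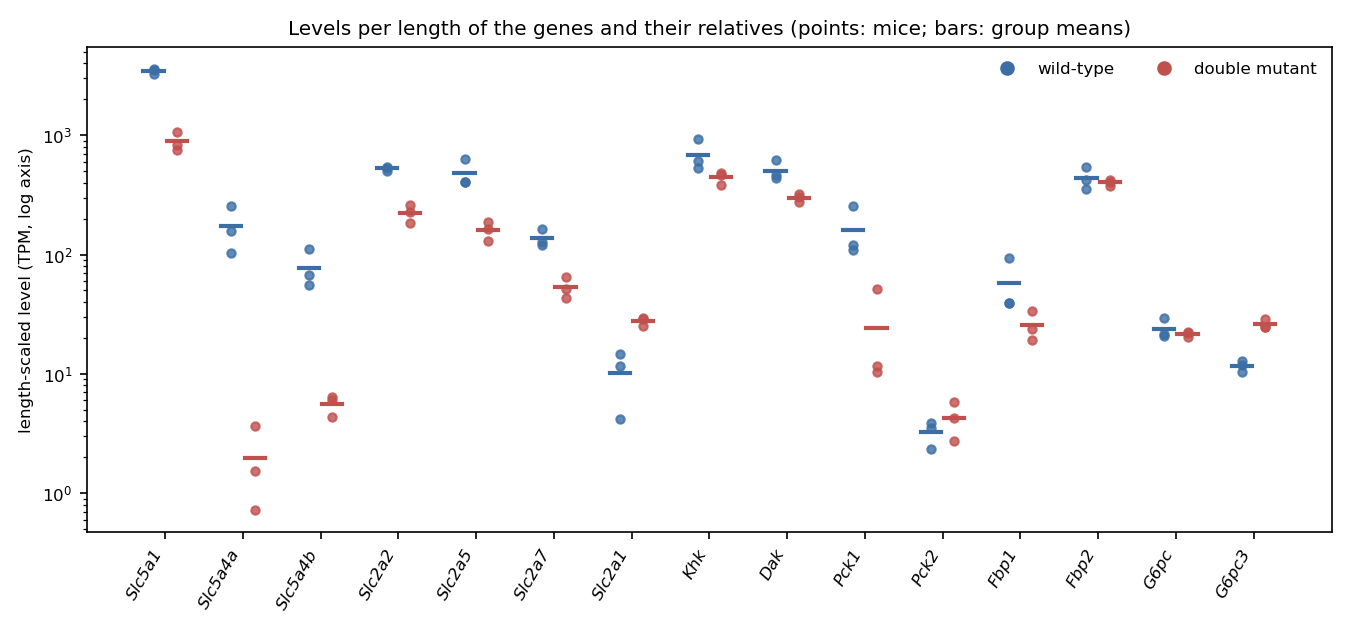
Length-scaled level (TPM, log axis) of the 8 genes and 7 relatives or partners in each mouse, with bars for group means. *Slc5a1* is the highest, *Slc5a4a* shows the widest gap between the groups, and *Fbp2* and *Pck2* overlap between groups as *G6pc* does.

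Genes with the most similar pattern were sought among 7906 genes with a mean of at least 10 CPM, by the root mean square difference of log2 values, each centred on its own mean, over the 6 mice. *Slc2a5* was followed most closely by *Pdzk1* (0.036 log2 units), *Khk* by *Fahd1* (0.0446), *G6pc* by *Fam18b* (0.038) and *Slc2a1* by *Orai2* (0.0767). The nearest to *Slc2a2* was 1200009I06Rik (0.0793), to *Slc5a1* the amino acid transporter *Slc6a19* (0.107) and to *Fbp1* *Ccbl1* (0.106). *Pck1* had no such close match, its nearest gene being *Sgk1* at 0.424, which was also higher in double mutant mouse 3 (21.6 CPM) than in double mutant mice 1 and 2 (9.06 and 7.10 CPM). The next nearest genes were *Gdpd2*, *Nat8*, *Ttc4*, 2210415F13Rik, *Adap2*, *Rfk*, a transcript numbered outside the annotation and *Podn*, in the order of the genes just named.

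**Figure D5:**
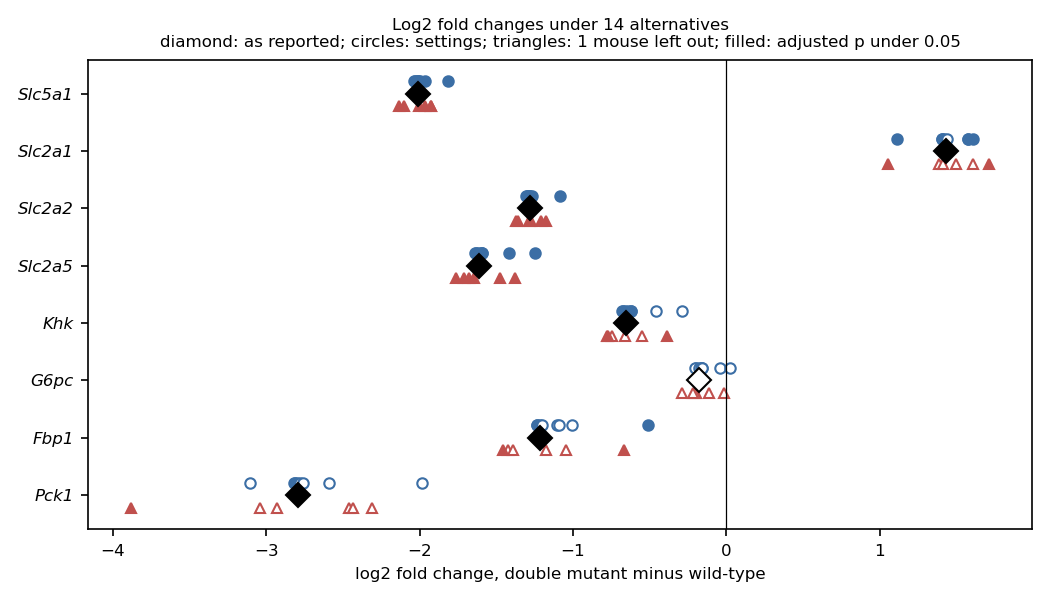
Log2 fold change of the 8 genes as reported (black diamonds), under 8 other settings (circles) and with 1 mouse left out (triangles), filled where the adjusted p was under 0.05. *Slc5a1*, *Slc2a2* and *Slc2a5* are filled throughout, *G6pc* is open throughout, and *Slc2a1*, *Khk*, *Fbp1* and *Pck1* passed in 9, 8, 6 and 4 of the 14 alternatives, all on the side of 0 of the reported value.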

How the data were processed

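Per the labels and the study's methods, the authors aligned the reads to mm9 with HISAT2 and counted them per gene with featureCounts. The strand setting and the rule for reads matching several genes are not given in the sources used here. The authors deposited raw counts, 1 column per mouse, neither normalised nor pooled. Of 20073 Ensembl identifiers, 20032 had a symbol and position in the GENCODE annotation of mm9.

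From the counts, genes were filtered by filterByExpr with the group, scaled by TMM, and tested in edgeR 4.0.16 (R 4.3.3; glmQLFit with robust estimation, glmQLFTest) with all 6 mice, no covariate and Benjamini-Hochberg adjustment over 13346 genes, at adjusted p 0.05. Normalised values are TMM-scaled CPM. Standard errors were taken as the log2 change over the root of the F statistic. Ratios of 2 genes within a mouse were compared by exact two-sided permutation tests (scipy 1.17.1). Promoters are RefSeq windows of GRCm38.p6, in which all 8 genes were found. The edgeR test was checked on simulated counts, which gave all genes the same dispersion and held no library that stood apart. The exact permutation tests were not checked in this way.

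The 8 genes and the other gene lists were chosen with earlier results of these data known. Named besides the 8 genes are *Smad4*, up to 3 called genes per list and direction with the largest change and a mean of at least 1 CPM, a set named whatever the result (*Dak*, *Slc37a4*, *Pck2*, *Pcx*, *Slc2a7*, *Mlxipl*, *Txnip*, *Hnf4a* and *Sis*), and the 2 genes most like each of the 8. Alternatives were DESeq2 1.42.0, RLE factors, library size alone, 2 other count filters, sex as a covariate, a replicate block, fold thresholds, and each mouse left out. Some genes under this rule are not reported here.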

Additional observations from a re-analysis of the deposited data

How the results depend on the processing

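Across the single genes named, 665 values under an alternative kept their direction and side of the threshold, 57 kept the direction but lost the call, and 6 changed sign. The sign changes were in genes with no call: *G6pc* was at 0.0214 with library size alone, and *Txnip*, at 0.02 as reported, was at −0.0063 with DESeq2, −0.0104 with RLE factors, −0.25 with the female mice alone (chosen after seeing the data), and from −0.21 (without wild-type mouse 1) to 0.21 (without wild-type mouse 2) when 1 mouse was left out, −0.02 without double mutant mouse 1. Of the 8 genes, 6 were lower as reported, 3 with library size alone, 4 with no filter on low counts, 4 with sex as a covariate, 4 in females alone and 2 with a log2 fold change of at least 2. The 1 higher gene became 0 with no filter on low counts and with a log2 fold change of at least 2. Of the other pathway genes, 16 were higher and 41 lower as reported, 21 and 30 with library size alone, 7 and 14 with a log2 fold change of at least 1, and 3 and 6 with at least 2. Leaving out 1 mouse at a time gave 3 to 5 lower and 0 to 1 higher among the 8 genes, and 33 to 37 lower and 14 to 19 higher among the others. The calls of *Slc2a1*, *Khk*, *Fbp1*, *Pck1* and *Mlxipl* depended on single mice, as given with their values, and in females alone those of *Khk*, *Pck1*, *Mlxipl*, *Akr1b8*, *Atp1b3* and *Sgk1* were lost. The 6 ratios between genes kept their sign under every mouse left out, from 0.29 to 0.61 for *Slc2a5* to *Slc5a1* and from −2.47 to −1.58 for *Pck1* to *Fbp1*. The causes of these changes were not tested.

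Mice of the same replicate number had deviations correlated at 0.0224, −0.109 and 0.0123. For mice of different numbers the values ran from −0.102 to 0.0935. With 3 mice per group, these correlations cannot decide whether the replicate numbers of the labels pair the mice. The numbers do match the groups by sex, the male being mouse 1 of each. With the replicate block, 3 of the 8 genes were lower and 1 higher (*Khk*, *Fbp1* and *Pck1* lost their calls, as did *Mlxipl*, *Hnf4a* and *Akr1b8* among the other genes named), 35 other pathway genes were lower and 15 higher, and over all genes 1750 were lower and 2084 higher. Depth did not limit the 8 genes, whose lowest normalised value was 5.62 CPM against a floor of 0.114 to 0.152 CPM, but 3 mice per group limits precision.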
